A study of Mus musculus with 6 samples.

Results

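The mitochondrial ribosome is built from proteins encoded in the nucleus, and the mouse genes for most of them carry the symbols Mrpl (large subunit) or Mrps (small subunit) followed by a number. Every row of the deposited expression table whose symbol had that form was taken, which gave 78 of 24980 listed genes, 49 Mrpl and 29 Mrps. Rows were taken by the symbol alone and by no measured value. The gene group itself was chosen with earlier results of these data known. Satellite cells, the stem cells of skeletal muscle, had been sorted by flow cytometry from the hindlimbs of adult mice of strain C57BL6/J, and their RNA was sequenced in 6 libraries. The 3 WT libraries carry the genotype scERα WT and the 3 KO libraries the genotype scERα KO, in which the gene of estrogen receptor α (Esr1) was targeted in satellite cells by induced Cre. All mice, WT included, had received tamoxifen, 10 mg in total, so no group without the drug is among these samples. The Cre driver, the sex of the mice and the number of mice behind a library are not given in the sources used here. Sample titles carry a different number for each library, but no label ties a library to an animal, so the spread between libraries may be partly technical. The comparison asks whether the transcripts of mitoribosomal proteins differ between satellite cells of the WT and KO genotypes.

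Mitochondria keep their own ribosomes, which translate the few messages of mitochondrial DNA into core subunits of the respiratory chain and ATP synthase. Their proteins are made in the cytosol, imported, and assembled on ribosomal RNAs that mitochondrial DNA encodes. Part of them descend from the bacterial ribosome, and others have no bacterial counterpart and surround a shortened RNA core. Quiescent satellite cells hold few mitochondria, and their mitochondrial content is known to rise when they activate.

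Values were TPM, a measure of transcript abundance scaled for length, so that levels of different genes can be set side by side. The listed TPM summed to between 295306 and 334382 per library, and since TPM keeps no sequencing depth, no counting error can be given. Esr1 stood at 7.53, 6.96 and 6.94 TPM in WT libraries 1 to 3 and at 2.92, 3.69 and 3.87 TPM in the KO libraries, where limma gave an adjusted p of 0.0925. Every library lay on the side its label names. The KO mean was 48.9% of the WT mean, so Esr1 transcript was lowered in the KO libraries and not absent. All 11 satellite cell markers listed for this check passed the filter on low values, with a summed level of 498 to 657 TPM in WT and 509 to 634 TPM in KO. Markers of other cells were present in both groups at lower summed levels: fibro-adipogenic progenitors (mesenchymal cells of muscle) 38.6 to 138 TPM in WT and 61.0 to 98.0 TPM in KO, mural cells 37.8 to 38.4 and 37.8 to 57.6 TPM, mature fibres 10.0 to 24.97 and 7.04 to 37.9 TPM, endothelial cells 10.6 to 15.8 and 10.6 to 20.3 TPM, leukocytes 2.84 to 4.53 and 3.37 to 5.27 TPM, Schwann cells 4.50 to 6.93 and 6.83 to 19.6 TPM, and red cells 18.2 to 215 and 38.4 to 437 TPM. The sums of mural cell, mature fibre, Schwann cell and endothelial markers were higher in KO libraries 2 and 3 than in any WT library. For endothelial cells KO library 3 was only just higher (15.93 against at most 15.79 TPM in WT). Not every single marker was so ordered, among them Kcnj8 and Abcc9 of mural and Tek of endothelial cells. The part of these cells in the results was not tested. In no marker list was a gene at 0 in all 6 libraries.

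Mitoribosomal protein transcripts were present at mostly low levels in both groups. Of the 78 genes, 73 reached 1 TPM in at least 3 libraries and were tested, 44 of the large and all 29 of the small subunit, and 56 of them reached 1 TPM in all 6 libraries. No member passed the filter through only one of the groups. The 5 left untested were Mrpl11, Mrpl19, Mrpl34, Mrpl41 and Mrpl44, all of the large subunit. Of the tested members 62 had a mean over the 6 libraries under 5 TPM. The median of the mean levels was 2.19 TPM over the 49 large subunit genes (range 0.425 to 29.8) and 2.33 TPM over the 29 small subunit genes (0.947 to 16.0). Of the 11 tested members at 5 TPM or more, 10 were of the large subunit.

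**Figure D1:**
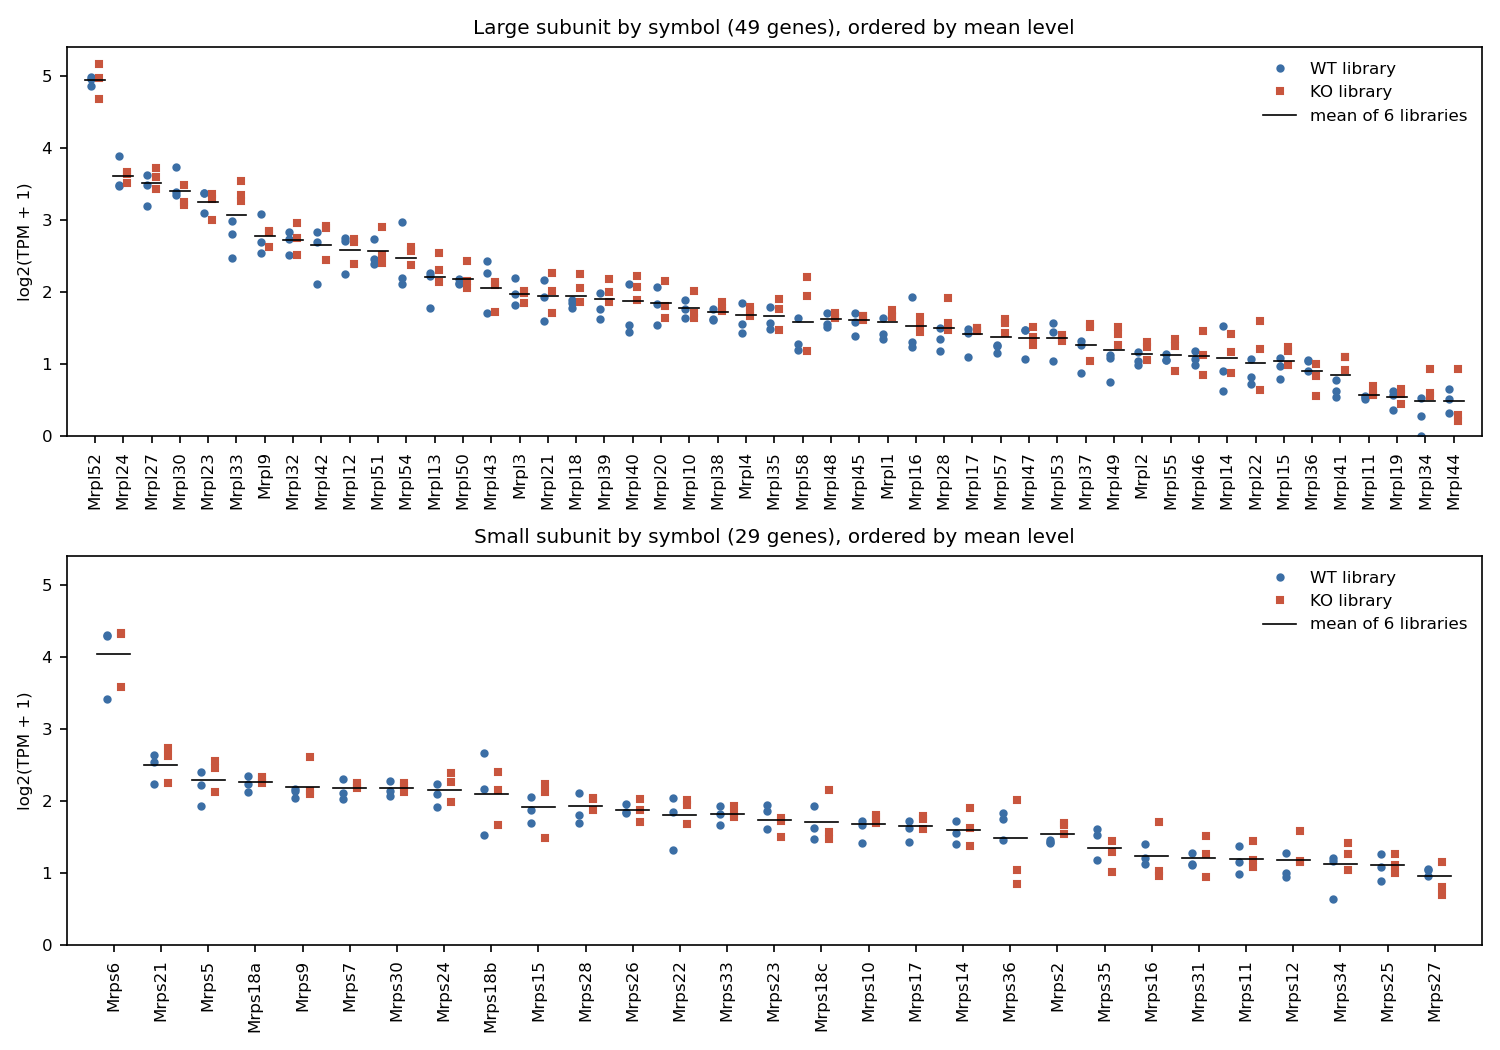
Level of each of the 78 members in each library on the log2(TPM + 1) scale, large subunit above and small subunit below, ordered by mean level (black bar, mean of the 6 log2 values). Blue circles are WT and red squares are KO libraries; for most genes the colours are mixed, and Mrpl52 and Mrps6 stand above the rest of their subunits.

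Mrpl52, a large subunit protein with no bacterial counterpart (chromosome 14, 54426909 to 54429756, plus strand, GRCm38), had the highest level of all members in each library. It stood at 28.0, 30.16 and 30.77 TPM in WT and at 34.86, 24.52 and 30.45 TPM in KO, so the groups overlapped. Mrps6, the small subunit protein that corresponds to bacterial S6, came second with a mean of 16.0 TPM. Together these 2 genes made up 15.0% to 20.7% of the summed TPM of all members. Below them in mean level were Mrpl24 (11.3 TPM) and Mrpl23 (8.56 TPM), whose bacterial counterparts lie at the exit of the peptide tunnel, with Mrpl27 (10.5 TPM) and Mrpl30 (9.65 TPM) between them. The library values of Mrpl24 (10.09 to 13.76 TPM), Mrpl27 (8.15 to 12.22 TPM) and Mrpl30 (8.25 to 12.32 TPM) overlapped, so their order is not resolved. At the low end of the tested members lay Mrpl36 (0.880 TPM), Mrps27 (0.947 TPM), an RNA-binding pentatricopeptide repeat protein, Mrpl15 (1.07 TPM), Mrpl22 (1.07 TPM) and Mrps25 (1.16 TPM).

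Spread between libraries of one group was larger than most differences between groups. The coefficient of variation within groups had a median of 19.2% over the tested members. It was smallest for Mrps2 (6.61%) and largest for Mrpl22 (51.0%), Mrpl14 (49.0%) and Mrps36 (47.4%). Mrps6 varied in a way that did not follow genotype: it held 18.65, 18.47 and 9.67 TPM in WT and 19.17, 18.95 and 10.98 TPM in KO. It was low in WT library 3 and KO library 3 and nearly equal in the other 4. Its gene model overlaps Slc5a3, a myo-inositol transporter gene, on the same strand, and Slc5a3 was at 15.71, 14.01 and 12.00 TPM in WT and at 11.84, 15.30 and 10.97 TPM in KO, so reads of the 2 genes may have been shared. In the same 2 libraries the summed fibro-adipogenic markers were highest (138 and 98.0 TPM, against 38.6 to 68.4 TPM in the other 4). The summed satellite cell markers were lowest of their groups (498 and 509 TPM). Single markers did not all follow these sums. Col3a1 made up most of the first (116.57 and 71.32 TPM). Dcn, at 8.66 and 8.23 TPM, was higher in WT library 2 (13.44 TPM) and KO library 2 (13.03 TPM). Sdc4 was lowest of its groups there (179.41 and 156.74 TPM). Pax7, at 23.3 and 29.46 TPM, was lower in WT library 1 (23.02 TPM) and KO library 1 (17.9 TPM). The part of cell composition in the level of Mrps6 was not tested.

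Between genotypes the members as a whole moved little. The median log2 difference, KO minus WT on the log2(TPM + 1) scale, was 0.08 over the 73 tested members, 0.10 over the 44 of the large and 0.07 over the 29 of the small subunit, beside 0.12 over all 8971 genes tested. By sign, 59 members had a positive and 14 a negative difference, and of all genes tested 77.6% were positive. Those signs depend on the scaling: with libraries scaled by the median of ratios the median of all genes moved from 0.12 to 0.01, and 30 members were positive and 43 negative, with a median of -0.02. Set against the median of all genes, the members lay lower by 0.04 as deposited and by 0.03 under that scaling, while with no filter on low values they lay 0.03 above it. The members' median was 0.15 without WT library 2 and 0.14 without KO library 1, where the median of all genes moved too.

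No single member was called different. With limma and Benjamini-Hochberg adjustment over all genes, 0 of 73 members passed 0.05, where 0.0557% of all genes did, and the smallest adjusted p of a member was 0.221. At an unadjusted limma p under 0.05, 3 members were higher in KO (4.11%, against 7.89% of all genes) and 0 were lower (against 2.66%). In 5 members (6.85%) every KO library lay above every WT library, against 13.5% of all genes, and in 0 every KO library lay below, against 3.07%. Among genes tested in this main setting, the members' shares at an unadjusted p and without overlap were thus under those of the whole table. Across the other settings the number at an unadjusted p under 0.05 ranged from 1 to 6. It was 1 with a filter at 5 TPM, where 12 members were tested, and without WT library 3 or KO library 2. It was 6 of 73 with protein-coding genes rescaled, and 6 without WT library 2 or KO library 1. The shares of all genes in those settings are not given here, so these counts cannot be set against the whole table.

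**Figure D2:**
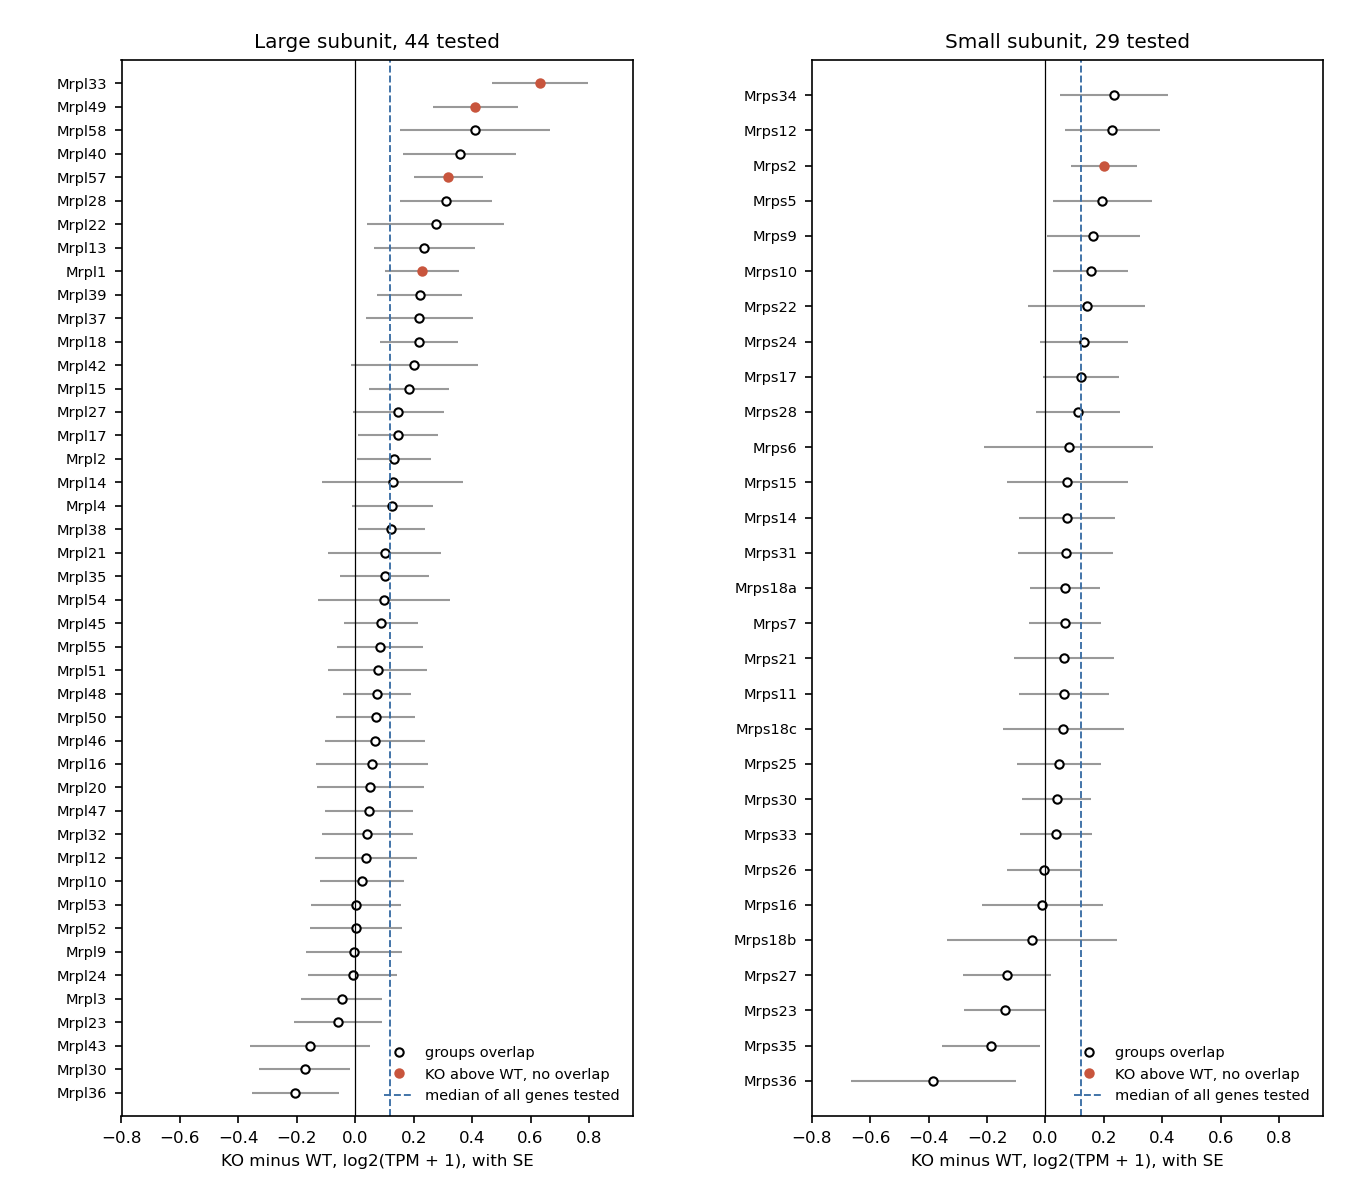
Difference between KO and WT in log2(TPM + 1) for the 44 large and 29 small subunit members tested; lines are standard errors and the dashed line is the median of all genes tested, 0.12. Filled points mark the 5 members whose KO libraries all lie above all WT libraries, led by Mrpl33 at 0.63; under median-of-ratios scaling the dashed line would lie at 0.01 and the members' median at -0.02.

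Mrpl33, a small protein of the large subunit with a bacterial counterpart (chromosome 5, 31596935 to 31664384, plus strand), had the smallest p among the members. It was at 6.90, 4.54 and 6.02 TPM in WT and at 8.65, 9.15 and 10.67 TPM in KO. All 3 KO libraries were above all 3 WT libraries, with means of 5.82 ± 1.19 and 9.49 ± 1.05 TPM (SD, n = 3 each), a ratio of 1.63. The log2 difference was 0.63 (SE 0.16; limma adjusted p = 0.221), and over 16 other settings it stayed between 0.42 and 0.75 with adjusted p between 0.109 and 0.569. The gene model overlaps Rbks on the opposite strand, but Rbks was only at 0.22 to 0.40 TPM.

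Mrpl49, a large subunit protein particular to mitochondria (chromosome 19, 6053622 to 6057785, minus strand), was at 1.18, 1.13 and 0.69 TPM in WT and at 1.40, 1.87 and 1.68 TPM in KO. Its groups did not overlap, and the log2 difference was 0.41 (SE 0.15; limma adjusted p = 0.356). Mrpl57, also particular to mitochondria (chromosome 14, 57826234 to 57829296, plus strand), was at 1.40, 1.39 and 1.22 TPM in WT and at 2.09, 1.96 and 1.70 TPM in KO, a log2 difference of 0.32 (SE 0.12; limma adjusted p = 0.380). Its lowest KO library stood above its highest WT library.

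Mrps2 was the only small subunit member whose groups did not overlap. It corresponds to bacterial S2 (chromosome 2, 28468066 to 28471178, plus strand) and was at 1.74, 1.70 and 1.68 TPM in WT and at 2.24, 2.18 and 1.91 TPM in KO. The log2 difference was 0.20 (SE 0.11; limma adjusted p = 0.577), with the smallest spread within groups of any tested member. Mrpl1, which forms a mobile stalk of the large subunit, was named after its values were seen: it was at 1.67, 2.11 and 1.54 TPM in WT and at 2.38, 2.15 and 2.19 TPM in KO, its lowest KO value barely above its highest WT value.

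Among the 5 members too low to be tested, Mrpl41, Mrpl11 and Mrpl34 also had all KO values above all WT values (the last 2 named after their values were seen), against 5.74% of the 11535 listed genes that were above 0 in some library and below the filter. Tested and untested members together had 8 of 78 so ordered (10.3%), against 9.13% of all 20506 genes above 0 in some library. Mrpl41, a protein particular to mitochondria, was at 0.46, 0.72 and 0.54 TPM in WT and at 1.14, 1.15 and 0.89 TPM in KO. Fitted without the filter, its difference was 0.39 (limma adjusted p = 0.523). Mrpl34 was at 0.21 and 0.45 TPM in WT libraries 1 and 3, was listed at 0 in WT library 2, and was at 0.52, 0.47 and 0.91 TPM in KO. How many reads lie behind such levels is unknown.

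**Figure D3:**
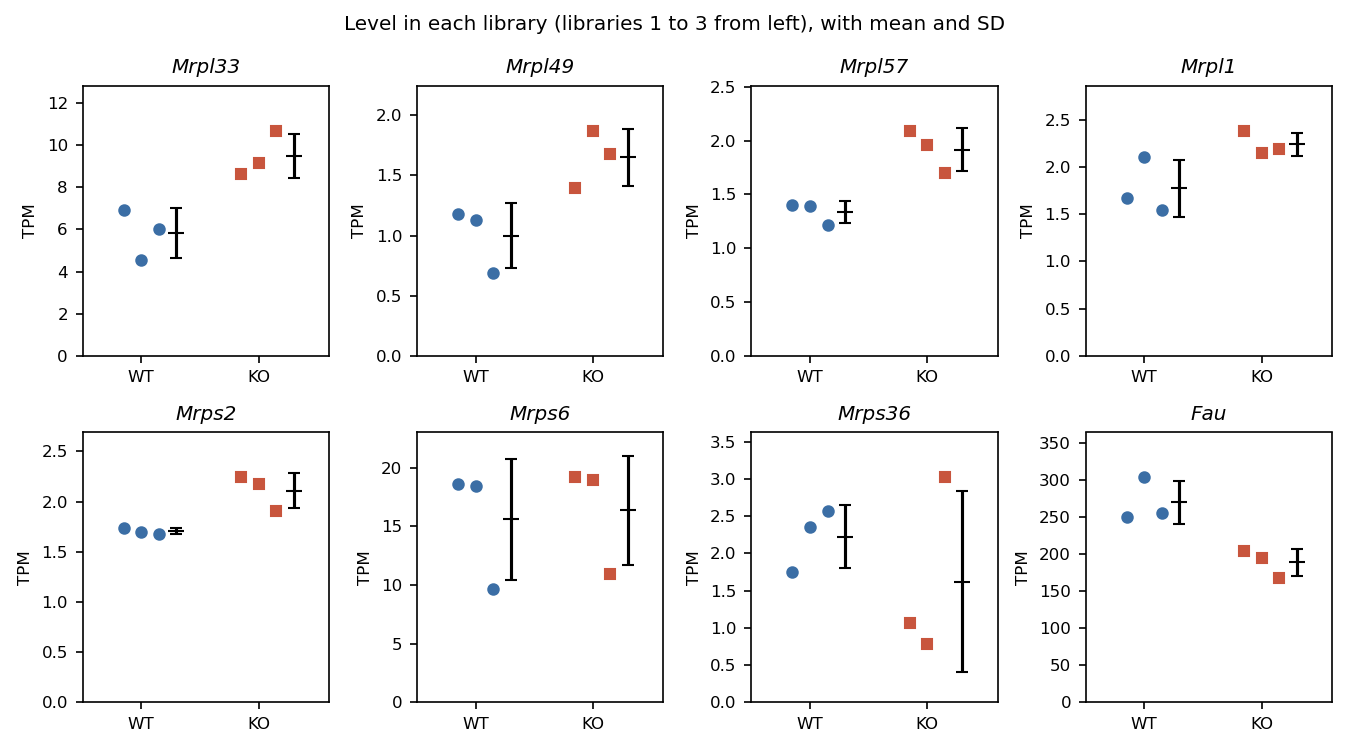
TPM in each library for the 5 tested members whose groups do not overlap, for Mrps6 and Mrps36, and for Fau, the divergent neighbour of Mrpl49. Points are libraries, and the bar beside each group is its mean with SD; Mrps6 is low in WT library 3 and KO library 3, and Mrps36 is high in KO library 3 alone.

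The most negative differences did not separate the groups. Mrps36 had the lowest, -0.38 (SE 0.28; limma adjusted p = 0.644), from 1.75, 2.35 and 2.57 TPM in WT to 1.06, 0.79 and 3.02 TPM in KO. KO libraries 1 and 2 were under all WT libraries, and KO library 3 was over them. Despite its symbol, Mrps36 is known from structural work not as a part of the mitoribosome but as a subunit of the 2-oxoglutarate dehydrogenase complex of the citric acid cycle. In the large subunit the lowest were Mrpl36 (log2 difference -0.20, limma adjusted p = 0.640), Mrpl30 (-0.17), Mrpl43 (-0.15) and Mrpl23 (-0.06), and in the small subunit Mrps35 (-0.19), Mrps23 (-0.14) and Mrps27 (-0.13).

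At the decoding centre, Mrps12, whose bacterial counterpart sets reading accuracy, was at 0.93, 1.42 and 0.99 TPM in WT and at 1.25, 1.23 and 1.98 TPM in KO (log2 difference 0.23, limma adjusted p = 0.635). Near the peptidyl transferase centre, Mrpl2 differed by 0.13, Mrpl3 by -0.05 and Mrpl16 by 0.06. Of the stalk that recruits translation factors, Mrpl12 stood at 5.02 ± 1.11 TPM in WT and 5.13 ± 0.763 TPM in KO (SD, n = 3 each), and its anchor Mrpl10 differed by 0.02. Where the messenger RNA enters, Mrps5 and Mrps24 differed by 0.20 and 0.13. Mrpl22, which lines the peptide tunnel, ranged from 0.65 to 1.11 TPM in WT and from 0.56 to 2.03 TPM in KO. Mrpl58, a peptidyl-tRNA hydrolase that has become part of the large subunit and can free stalled chains, was at 1.43, 1.29 and 2.13 TPM in WT and at 1.28, 2.87 and 3.64 TPM in KO (log2 difference 0.41, limma adjusted p = 0.605), with KO library 1 the lowest of all 6.

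Mutations in Mrps16, Mrps22, Mrps7 and Mrpl44 are known to cause mitochondrial disease. Mrps16 had 1.38 ± 0.246 TPM in WT and 1.42 ± 0.743 TPM in KO, Mrps22 had 2.41 ± 0.837 and 2.69 ± 0.448 TPM, and Mrps7 had 3.44 ± 0.434 and 3.63 ± 0.110 TPM (SD, n = 3 each). Mrpl44, an untested member that carries an RNase III fold, was at 0.25, 0.43 and 0.57 TPM in WT and at 0.23, 0.16 and 0.91 TPM in KO. Of the 3 relatives of bacterial S18, Mrps18a, which sits in the large subunit, had a log2 difference of 0.07, Mrps18b -0.05 and Mrps18c 0.06, and each of these signs turned in another setting, with the highest level in Mrps18a (3.82 TPM over all libraries).

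Subunits were also grouped by structure and descent, with Mrps18a and Mrps30, which lie in the large subunit, moved there. Of the relatives of bacterial S18, only Mrps18c was counted as having a bacterial counterpart. Mrps18a and Mrps18b were counted as particular to mitochondria, a choice on which the groups below depend in part. The 27 tested large subunit proteins with a bacterial counterpart had a median difference of 0.10 (21 positive), and the 19 particular to mitochondria had 0.09 (18 positive). In the small subunit the 16 with a bacterial counterpart had a median of 0.10 (15 positive), and the 10 particular to mitochondria had 0.02 (5 positive). No difference between these 4 groups was tested.

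Large and small subunit members kept nearly the same proportion in both genotypes. Summed TPM of the large subunit was 161, 188 and 160 in the WT and 181, 182 and 191 in the KO libraries, and that of the small subunit 78.8, 91.6 and 75.8 in the WT and 79.4, 95.7 and 85.7 in the KO libraries. The ratio of large to small was 2.05, 2.06 and 2.10 in the WT and 2.28, 1.90 and 2.22 in the KO libraries. KO libraries thus lay on both sides of the WT libraries and were more spread than them (2.07 ± 0.0307 in WT, 2.14 ± 0.204 in KO, SD, n = 3 each). With subunits by structure the ratio was 2.40, 2.40 and 2.52 in the WT and 2.67, 2.17 and 2.64 in the KO libraries. Mrpl52 and Mrps6 bear on these sums: without both of them, a choice made after the data were seen, the ratio was 2.22, 2.16 and 1.95 in the WT and 2.43, 2.06 and 2.14 in the KO libraries, and the narrow WT range was gone.

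Set beside other gene groups, the contrast that stood out was with the cytosolic ribosome. Of 83 tested cytosolic ribosomal protein genes 80 were negative, with a median of -0.56, and 77 had all KO libraries below all WT libraries (against 3.07% of all genes), although 0 passed the adjusted threshold (limma, smallest adjusted p 0.153) and 75 had an unadjusted p under 0.05. These lower values were known from these data before the mitochondrial members were set beside them. The median was -0.71 with median-of-ratios scaling and -0.27 with quantile normalization. The ratio of summed cytosolic to mitochondrial ribosomal protein TPM, in which any scaling of a library cancels, was 103, 110 and 115 in the WT and 78.1, 66.8 and 62.1 in the KO libraries. The groups did not overlap, with means of 110 ± 6.21 and 69.0 ± 8.21 (SD, n = 3 each). The mean log2 ratio differed by -0.67, and leaving out each library in turn gave -0.76 to -0.60. No test was made of this ratio, which was chosen with these values known. In bulk RNA, fewer cells of a type and less RNA per cell cannot be told apart.

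The members' share of protein-coding TPM depended on that same group. It was 0.236%, 0.233% and 0.227% in the WT and 0.248%, 0.258% and 0.281% in the KO libraries, without overlap. Cytosolic ribosomal proteins took 24.3%, 25.7% and 26.2% of the coding total in WT and 19.4%, 17.2% and 17.4% in KO. With them left out of the total, the members' share was 0.311%, 0.313% and 0.307% in the WT and 0.308%, 0.311% and 0.340% in the KO libraries, and the groups overlapped.

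**Figure D4:**
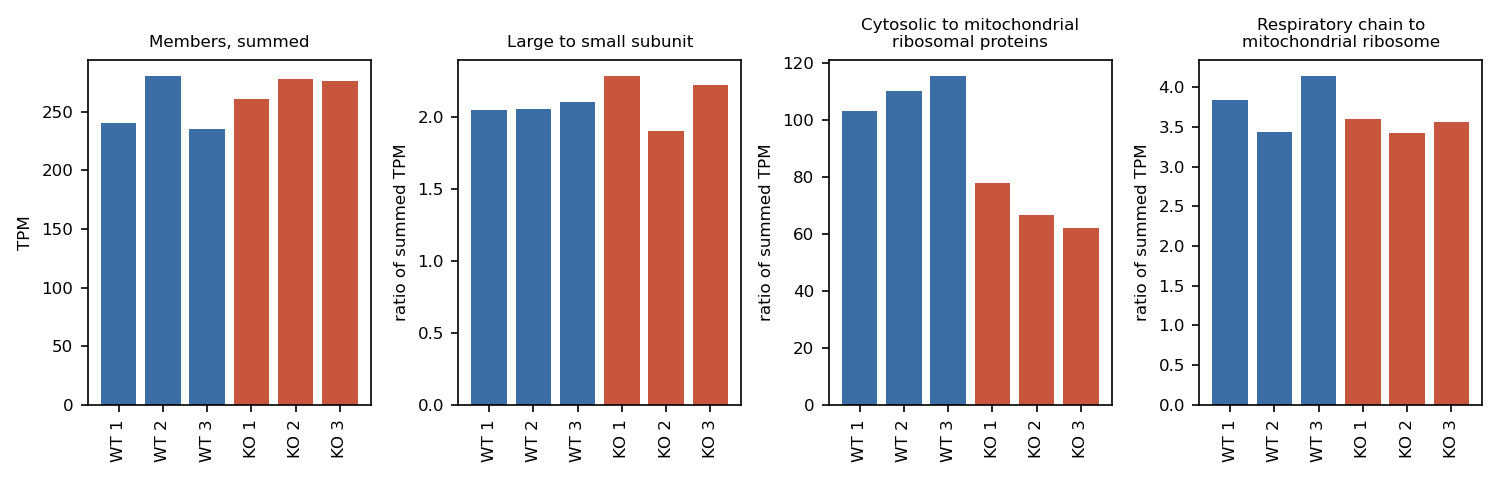
Summed TPM of the 78 members, and ratios of summed TPM, in each library (bars; blue WT, red KO). The ratio of cytosolic to mitochondrial ribosomal proteins runs from 103 to 115 in WT and from 62.1 to 78.1 in KO, while the other 3 panels overlap between groups.

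Genes that work with the mitoribosome also differed little between the groups on the deposited scale. Of the 5 further mitoribosomal proteins with other symbols, 3 were positive and 2 negative, with a median of 0.16. Aurkaip1 was at 5.30, 4.40 and 4.50 TPM in WT and at 5.78, 6.26 and 5.64 TPM in KO, without overlap (log2 difference 0.27, limma adjusted p = 0.492), and Dap3, a GTP-binding protein of the small subunit, differed by 0.16. The 9 tested translation factors had a median of 0.01, with Tufm, the elongation factor that delivers aminoacyl-tRNA, at -0.07 and Oxa1l, the insertase of the inner membrane, at -0.20. The 11 tested assembly factors had a median of 0.05. The 11 tested genes of the mitochondrial aminoacyl-tRNA synthetase list had -0.04, beside 0.12 over all genes tested. The synthetase list also held Gars (0.30), Kars (0.15), Qrsl1, Gatb and Gatc, so not every gene in it encodes a synthetase of mitochondria alone. With median-of-ratios scaling the 4 medians, in the order given, were 0.07, -0.12, -0.02 and -0.14, beside 0.01 over all genes. In these 4 lists 0 genes had an unadjusted limma p under 0.05, against 7.89% of all genes higher and 2.66% lower in KO. With 5 to 11 tested genes per list, that count says little about them.

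Genes of mitochondrial DNA upkeep and transcription were split. Twnk, the replicative helicase, was at 2.48, 1.97 and 2.63 TPM in WT and at 1.96, 1.71 and 1.41 TPM in KO, with all KO libraries below WT (log2 difference -0.32, limma adjusted p = 0.462). Tfam, which packages mitochondrial DNA and starts its transcription, had all KO libraries above WT, with a KO mean of 3.67 ± 0.139 TPM (SD, n = 3) and a difference of 0.22 (limma adjusted p = 0.532). The 78 nuclear-encoded respiratory chain subunits had a median of 0.05, with 52 positive and 26 negative. In 9 of them KO lay wholly above WT (11.5%, against 13.5% of all genes) and in 5 wholly below (6.41%, against 3.07%), among the latter Cox4i1 (52.9 ± 5.86 TPM in WT and 38.7 ± 2.39 TPM in KO, SD, n = 3 each; limma adjusted p = 0.303). The ratio of their summed TPM to that of the members was 3.84, 3.43 and 4.14 in the WT and 3.60, 3.42 and 3.57 in the KO libraries. The 21 import genes had a median of 0.07. Genes encoded in mitochondrial DNA, the templates these ribosomes translate, were not analysed here.

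**Figure D5:**
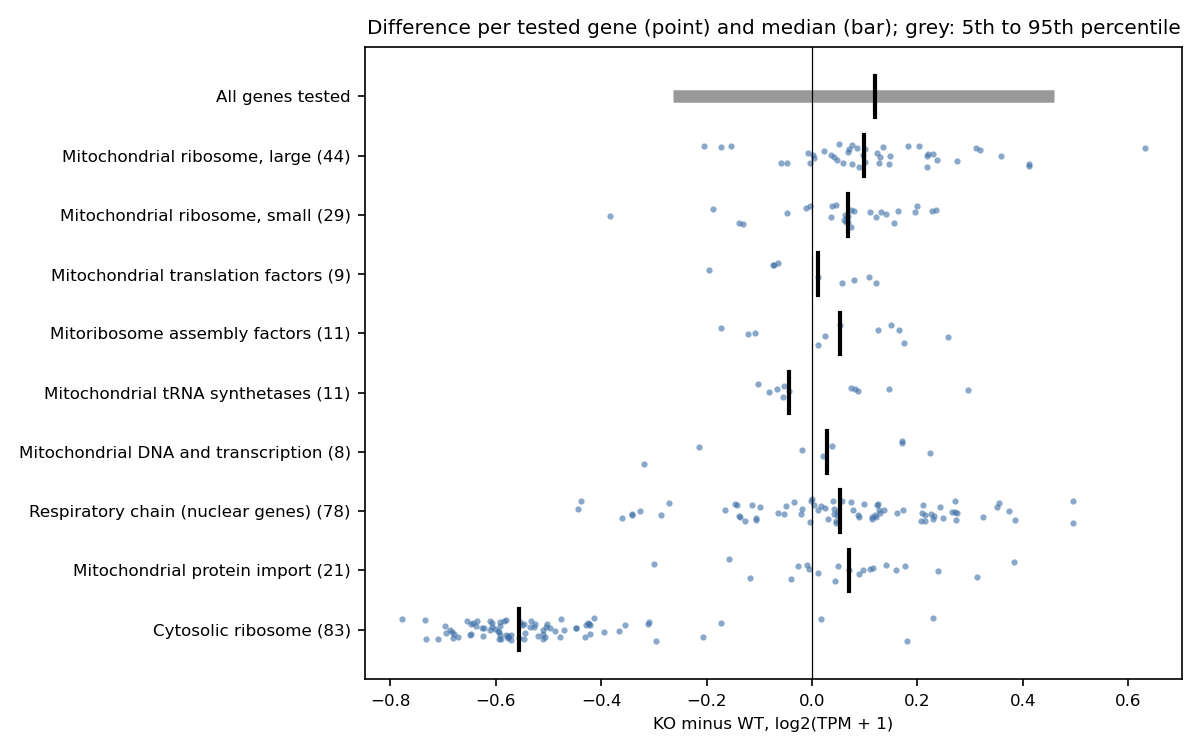
Difference between KO and WT in log2(TPM + 1) for the tested genes of each list (points) with the list's median (black bar); for all genes tested the grey band runs from the 5th to the 95th percentile. The cytosolic ribosome lies at a median of -0.56, while both mitoribosomal subunits and the other mitochondrial lists drawn lie between -0.04 and 0.10; under median-of-ratios and quantile scaling the medians of both mitoribosomal subunits fall just under 0.

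Some mitoribosomal protein genes start back to back with another gene. Within 1000 bases of a RefSeq start, 25 of the 78 members had the start of a protein-coding gene running the opposite way. The share among all genes was not computed, so this cannot be called a trait of the members. In one pair both genes are members: Mrpl46 and Mrps11 start 42 bases apart, one of each subunit, with log2 differences of 0.07 and 0.06. The pair Mrpl43 and Twnk, 116 bases apart, had -0.15 and -0.32. In both of these pairs the gene models overlap on opposite strands, so reads may have been shared. Mrpl57 and Ska3, 76 bases apart, had 0.32 and 0.03, and Mrpl32 and Psma2, a proteasome subunit gene, 205 bases apart, had 0.04 and 0.36. Values in pairs were thus alike in some and unlike in others. The pairs described were picked after their values were seen.

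Mrpl49 shares its start region with Fau, which encodes a ubiquitin-like protein fused to a protein of the cytosolic small subunit, so that a mitochondrial and a cytosolic ribosomal gene face away from one stretch. Their RefSeq starts are 192 bases apart, and their gene models leave 58 bases between them. Those bases are given here because the differences of the genes on either side had opposite signs, neither of them past the adjusted threshold; they are read on the minus strand, the strand of Mrpl49 (GRCm38.p6, chr19:6057786-6057843).
Mrpl49 to Fau: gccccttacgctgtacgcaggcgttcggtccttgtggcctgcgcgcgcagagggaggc

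Fau was at 250.93, 303.63 and 255.64 TPM in WT and at 204.39, 194.65 and 168.55 TPM in KO, all KO libraries below WT (log2 difference -0.51, SE 0.15; limma adjusted p = 0.245), while all KO libraries of Mrpl49 lay above WT. Fau exceeded Mrpl49 by 213, 269 and 370 times in WT and by 146, 104 and 100 times in KO. Neither gene passed the adjusted threshold in any other setting run, 15 for Mrpl49 and 16 for Fau, and the pair was chosen after these values were seen.

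Another neighbour of a member did pass. H19, an imprinted noncoding RNA whose gene lies 34781 bases beyond the end of Mrpl23 on chromosome 7, was at 3.24, 4.24 and 1.81 TPM in WT and at 12.17, 13.90 and 16.56 TPM in KO, and limma gave an adjusted p of 0.0491. Over 15 other settings that p ran from 0.00521 (robust eBayes) to 0.319 (no filter on low values), and the call was lost, among others, with median-of-ratios scaling and without WT library 1 or any one KO library. Mrpl23, at 7.54, 9.36 and 9.33 TPM in WT and at 9.28, 8.82 and 7.0 TPM in KO, overlapped between groups.

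Promoters of nuclear genes for mitochondrial proteins are known for sites of NRF1, of ETS factors such as GABP, and of YY1. RefSeq start windows (GRCm38.p6, 250 bases before to 50 after a start) were available for 69 of the 78 members and searched on both strands for 4 short cores. The ETS core CCGGAAG was in 26 members (37.7%), against 9.93% of all 27025 windows and 21.4% of those of tested genes. The NRF1 core GCGCATGCG was in 7 members (10.1%, against 1.95% and 4.52%), 6 of them of the large subunit. The YY1 core AAGATGGCG was in 8 (11.6%, against 1.64% and 4.24%), 4 in each subunit. The SP core GGGCGG was in 34 (49.3%, against 38.2% and 70.3%). The ETS core ends and the YY1 core begins with the same 3 letters, so one stretch can hold both, and a match describes letters and not a bound factor.

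The share of the ETS core was as high in cytosolic ribosomal protein genes, 38.5% of 65, the group with the lower values in KO. In 66 nuclear-encoded respiratory chain subunits it was 24.2%, while the NRF1 core was in 12.1% and the YY1 core in 10.6% of them. Within the members, the 35 tested genes with an NRF1, ETS or YY1 core had a median difference of 0.07 and a median level of 2.55 TPM, and the 30 without one had 0.07 and 2.11 TPM. Of the regulators themselves, Nrf1 was at 3.58 ± 1.08 and 3.97 ± 0.502 TPM, Gabpa at 5.35 ± 0.343 and 5.98 ± 0.903 TPM and Yy1 at 10.4 ± 1.42 and 10.3 ± 1.03 TPM in WT and KO (SD, n = 3 each), all with overlapping groups. The stretches just before 3 members show the cores in capitals on the gene's own strand (GRCm38.p6, outside any annotated gene). Mrpl52 is the most abundant member (chr14:54426789-54426908, plus strand, ETS core on the reverse strand), Mrpl22 holds both an ETS and an NRF1 core (chr11:58171544-58171660, plus strand), and Mrps22 is a small subunit gene with an ETS core (chr9:98601680-98601799, minus strand).
Mrpl52: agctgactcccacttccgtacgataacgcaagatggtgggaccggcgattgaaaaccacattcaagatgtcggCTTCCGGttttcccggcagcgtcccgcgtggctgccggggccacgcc
Mrpl22: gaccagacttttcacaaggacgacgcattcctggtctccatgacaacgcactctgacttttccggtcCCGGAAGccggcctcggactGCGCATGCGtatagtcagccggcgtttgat
Mrps22: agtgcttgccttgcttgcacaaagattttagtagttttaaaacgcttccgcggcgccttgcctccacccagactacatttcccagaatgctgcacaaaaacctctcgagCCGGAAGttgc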

How the data were processed

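RNA of sorted satellite cells was sequenced in 6 libraries, 3 per genotype as the labels give it. The authors deposited TPM per gene symbol, which leaves sequencing depth and counting precision unknown. Per the submitters' processing notes, the tools were kallisto, Trimmomatic 0.33, CASAVA and FastQC, and the builds GRCm38 and mm10. Neither the annotation nor the way transcripts were summed per gene is stated in the sources used here.

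A gene was kept if 3 or more of the 6 libraries reached a TPM of 1, which left 8971. Differences on the log2 scale, with 1 added to TPM, were tested by limma 3.58.1 under R 4.3.3 (eBayes with a trend, two-sided, Benjamini-Hochberg adjustment over all genes tested, threshold 0.05); such differences understate changes of low genes. Lists are described by counts and medians, with no list test. An exact permutation test of Esr1 over the libraries, two-sided, gave p = 0.1, the smallest that 3 against 3 allows. On simulated data for KO against WT with 8971 genes, changed genes were drawn at random. Over 5 simulations, 76.6% of 500 genes moved by 1 on the log2(TPM + 1) scale were called. At the low levels of most members, a doubling of TPM is a smaller step on that scale. The rate therefore does not hold for 2-fold changes of members.

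Members and lists were chosen with earlier results of these data known. Members were named if past the threshold, among the 4 smallest p per direction and subunit, among the 3 highest or lowest levels, or for their role; others are marked as chosen after their values were seen. Of each other list, up to 3 genes with the smallest p and genes of a described role could be named. Libraries are numbered in accession order. Coordinates are from GENCODE vM21 (all 78 symbols matched), start windows and sequences from RefSeq on GRCm38.p6. Of the members 26 overlap another coding gene, 23 on the other strand and 4 on the same, and no source used here states strandedness, so their reads may be shared. The alternatives used a pseudocount of 0.1 or 5, other filters, 3 rescalings, eBayes without a trend or robust, and leaving out each library.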

Additional observations from a re-analysis of the deposited data

How the results depend on the processing

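In all 16 other settings 0 members were called by limma, with a smallest adjusted p of a member between 0.109 (protein-coding genes rescaled) and 0.438 (without KO library 3). How often a 2-fold change in the TPM of a member would be called was not tested, and the depth behind single TPM values is unknown. No paired analysis was possible because the labels give the libraries no shared numbers. The median difference of the members was -0.0205 with median-of-ratios scaling and -0.0285 with quantile normalization, and that of the large subunit -0.00542 and -0.0126. Of 41 named genes, Esr1 included, 18 changed sign in at least 1 setting. For these sign changes the cause was not tested.

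With median-of-ratios scaling Mrpl10 (-0.0884), Mrpl12 (-0.0869), Mrpl16 (-0.0316), Mrpl52 (-0.145), Mrps18a (-0.0515), Mrps18c (-0.0430), Mrps21 (-0.0607), Mrps25 (-0.0319), Mrps30 (-0.0804), Mrps6 (-0.0608) and Mrps7 (-0.0496) turned negative. With quantile normalization Mrpl10 (-0.0958), Mrpl12 (-0.110), Mrpl16 (-0.0537), Mrpl27 (-0.00514), Mrpl52 (-0.144), Mrps18a (-0.0710), Mrps18c (-0.0513), Mrps21 (-0.0860), Mrps25 (-0.0435), Mrps30 (-0.108), Mrps6 (-0.0974) and Mrps7 (-0.0644) did. With protein-coding genes rescaled Mrpl24 (0.0510), Mrpl3 (0.00282), Mrps16 (0.0287) and Mrps18b (0.00409) turned positive, as did Mrps16 (0.00428) with a pseudocount of 5. Leaving out each library in turn, the ranges that crossed 0 were those of Mrpl10 (-0.0897 to 0.0961), Mrpl12 (-0.127 to 0.144), Mrpl16 (-0.0704 to 0.279), Mrpl23 (-0.152 to 0.0501), Mrpl24 (-0.0802 to 0.126), Mrpl3 (-0.136 to 0.0552), Mrpl52 (-0.112 to 0.133), Mrps16 (-0.250 to 0.125), Mrps18b (-0.340 to 0.225), Mrps18c (-0.151 to 0.191), Mrps21 (-0.0557 to 0.206), Mrps22 (-0.0695 to 0.295), Mrps25 (-0.0469 to 0.137), Mrps30 (-0.00870 to 0.0956) and Mrps6 (-0.211 to 0.328).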
